A study of Homo sapiens with 8 samples.

Results

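Genes that build, activate, reshape and burn fatty acids were followed through a comparison of RNA methylation in CSTF2-knockout and parental liver cancer cells. The members were 59 genes, chosen from a list of names drawn up with earlier results of these data known, and a gene counted as listed where its name stood in the authors' deposited table of differences. Of the 59, 48 were listed in at least 1 of the 2 cell lines, among 11993 gene names in all. HUH7 and PLC/PRF/5 are established human hepatocellular carcinoma lines. In each line the groups were CSTF2-knockout cells (IP and input) and parental cells (IP and input), the knockout having been made with CRISPR-Cas9. Each of the 8 groups held 1 library, and whether the knockout cells were 1 clone or a pool is not given in the sources used here. MeRIP-seq captures RNA fragments that carry N6-methyladenosine (m6A) with an antibody and compares them with the unselected input. The protein made from CSTF2 belongs to the cleavage stimulation factor, which acts where mRNA 3′ ends are formed.

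Fatty acid synthesis starts in the cytosol from acetyl-CoA, which is carboxylated to malonyl-CoA and extended to palmitate. Long-chain fatty acids must be joined to coenzyme A before they can be desaturated, elongated, stored in glycerolipids or oxidised. Oxidation in mitochondria depends on the carnitine shuttle, and malonyl-CoA restrains the entry step of that shuttle. Peroxisomes shorten the longest and the branched chains. The liver carries out all of these routes, under transcriptional control that includes the PPAR nuclear receptors and their coactivators.

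Each value is a log2 fold change as the authors deposited it. The table does not state whether knockout or parental cells are the numerator, so values are given as positive or negative with no direction toward either genotype, and signs of the 2 lines may not mean the same. HUH7 had 1 value per gene, while PLC/PRF/5 had 1 value per peak, and a PLC/PRF/5 gene with several peaks was given their median. With 1 library per group there was no replicate and no test, read counts were not analysed here, and no value carries an error. In bulk RNA, a difference in the share of cells and a difference per cell cannot be told apart. Values in HUH7 came with 16 numbers that recurred in 10 or more genes each, and these are called repeated. Values in PLC/PRF/5 filled their range from -2.12 to 13 evenly, with 599 to 655 peaks in each of 15 unit-wide bins from -2 to 13. A member's PLC/PRF/5 value is therefore to be read against the whole column, whose median was 5.44 over peaks and 5.45 over gene medians. In that column 90.3% of genes had a positive median.

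As a check of the labelled cell type, 13 of 18 hepatocyte markers were listed in HUH7 (-0.50 to 1.72) and 14 of 18 in PLC/PRF/5. AFP, APOH and TTR were listed in neither line, and ALB and KRT18 were missing in HUH7. Of 17 markers of endothelial, fibroblast, immune and bile duct cells, 11 were listed in HUH7 and 4 in PLC/PRF/5. Of all protein-coding genes, 51% were listed in HUH7 and 24.1% in PLC/PRF/5. Both marker sets were listed above that share in HUH7, so listing there does not tell the cell types apart. Of the 11 markers of other cell types in HUH7, 9 had unrepeated values, from -0.38 to 4.01. The other 2 held repeated values of -7.94 and 9.92. All 5 fibroblast and stellate markers were listed in HUH7, with a median of 3.97, or 3.12 over the 4 unrepeated values. A listing gives a value of the comparison between genotypes and not a level in either. Whether values were adjusted for input is not given in the sources used here. The part of these markers in the members' values was not tested. In the authors' deposited table CSTF2 had 1 PLC/PRF/5 peak, at -0.50, and was not listed in HUH7, which is no check of the knockout.

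HUH7 listed 41 of the 59 members (69.5%), against 51% of all protein-coding genes. PLC/PRF/5 listed 18 members (30.5%), against 24.1% of protein-coding genes. Both lines listed 11 members (18.6%, against 19.4%), and 30 members stood in HUH7 only. Of 20056 protein-coding genes, HUH7 listed 10236 and PLC/PRF/5 listed 4833, with 3888 of them listed in both lines. The 7 members listed in PLC/PRF/5 only were ACLY, ACSL3, SCD, ELOVL4, ACADM, HADHA and ECHS1. The 11 members listed in neither line (18.6%, against 44.3% of protein-coding genes) were ACSL6, SCD5, ELOVL5, HACD1, TECR, CPT1C, ACADL, ECI2, ACOX2, HSD17B4 and PNPLA2. The rule by which the authors listed genes is not given in the sources used here, so a missing gene is not one shown to be unmethylated or unchanged.

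Most m6A lies in a short consensus, of which GGACT is a common form, and mainly near stop codons and in 3′ parts of mRNAs. Peak positions were not analysed here, and the sequences at hand reached only the first 50 transcribed bases of a gene, from RefSeq start sites (GRCh38.p14). Of 50 members with such a sequence, 2 held GGACT on the transcribed strand (4%), beside 4.9% of 35116 start sequences. The 2 matches are shown because they are the places where the members' start sequences hold the consensus, in capitals, within 30 bases.
ELOVL1: ggcaggctggccccggGGACTtctctctgg
ACADS: cagcgggaggtcgcgaagcctgGGACTgtg
The ELOVL1 window is chr1:43367962-43367991 on the minus strand, and the ACADS window is chr12:120725846-120725875 on the plus strand. Both genes had small HUH7 values, 0.25 and -0.09 in the authors' deposited table. HADH, ACSL4, ACSL5 and CPT1A held no GGACT in those bases, which says nothing of the rest of their transcripts.

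Members went both ways in HUH7, at shares close to those of the whole column. Of the 41 listed members, 27 were positive and 14 negative, so that 65.9% were positive beside 60.8% of all HUH7 genes. Their median was 0.25, beside 0.20 for all genes. A log2 value of 1 or more, a difference of at least 2-fold, was reached by 10 members (24.4%), beside 22.2% of all genes. A value of -1 or less was reached by 3 members (7.32%), beside 14.6% of all genes. Of the 1529 genes at -1 or less, 824 held repeated values. Among unrepeated values, 9 of 40 members were at 1 or more (22.5%), beside 20.1% of genes, and 3 were at -1 or less (7.5%), beside 7.72% of genes. Over unrepeated values the members as a set thus lay near the background, and the larger values belonged to single genes. Of the 41, 13 overlap another protein-coding gene in the annotation, among them ACACA, ACSL5, ACAD11, ACAA1 and PPARGC1B, and without strand reads of an overlap cannot be told apart.

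**Figure D1:**
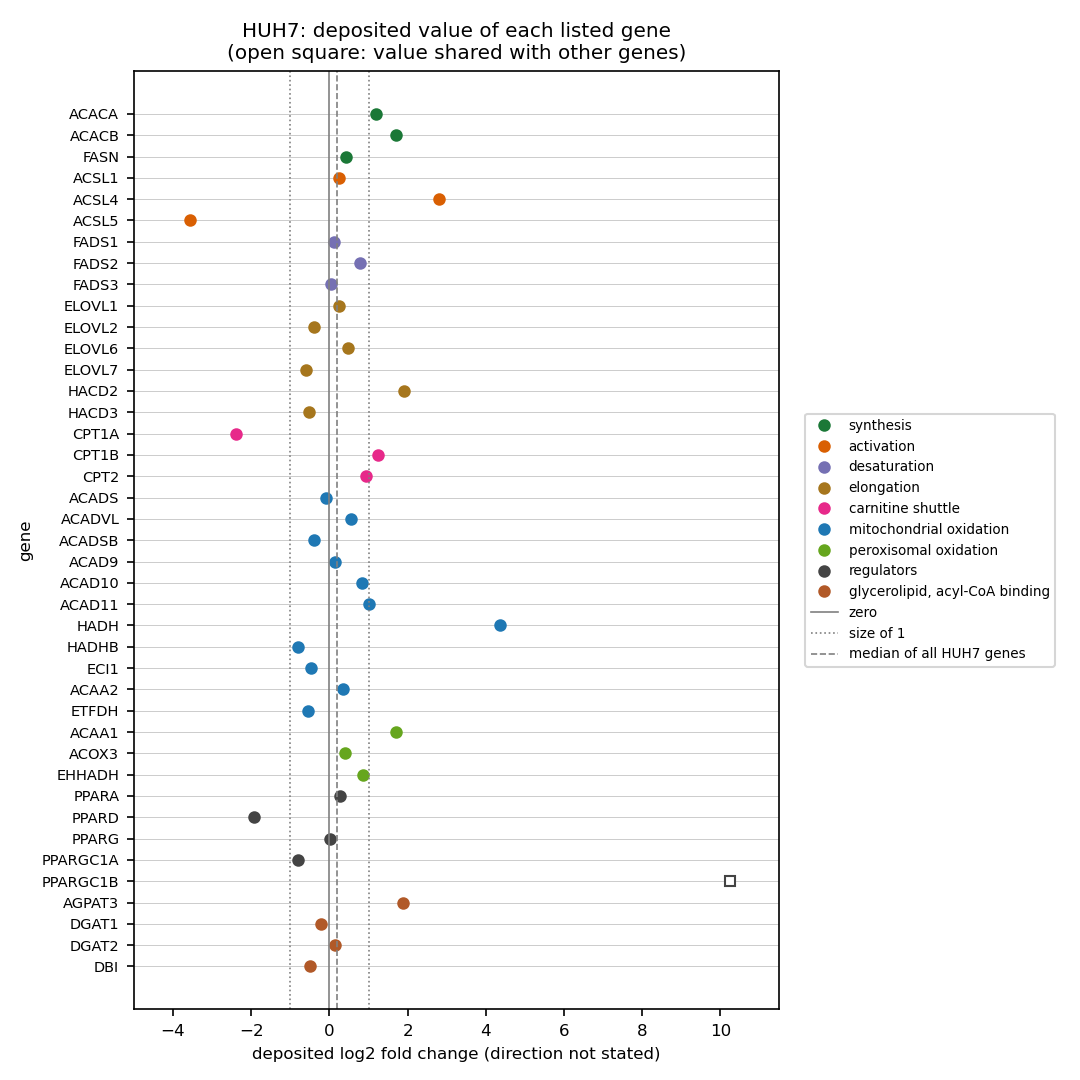
Deposited HUH7 log2 fold change (x axis, direction not stated) of each of the 41 listed genes (y axis), coloured by role, with dotted lines at a size of 1 and a dashed line at the median of all HUH7 genes, 0.20. Most genes lie within the dotted lines, HADH (4.36) and ACSL5 (-3.56) lie farthest out among unrepeated values, and PPARGC1B (10.24, open square) holds a value shared by 64 genes.

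The genes of fatty acid synthesis were the role with the highest HUH7 median, 1.20 over 3 listed genes. ACACB, the acetyl-CoA carboxylase at the mitochondrial outer membrane, had 1.71 (3.27-fold) in the authors' deposited table. ACACA, the cytosolic carboxylase that makes malonyl-CoA for synthesis, had 1.20 (2.30-fold) in the authors' deposited table. FASN, which assembles palmitate, had 0.43 in the authors' deposited table, a size that 57.2% of unrepeated HUH7 genes exceeded. All 3 were thus positive, as were 60.8% of all HUH7 genes, both carboxylases were past 1, and 13.1% of unrepeated genes exceeded ACACB in size. ACLY, which splits citrate to cytosolic acetyl-CoA, was not listed in HUH7 and had 1 PLC/PRF/5 peak at 3.87 in the authors' deposited table. ACACA, ACACB and FASN had no peak in PLC/PRF/5, so no synthesis gene could be set side by side in the 2 lines.

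The long-chain acyl-CoA synthetases (ACSL), which attach coenzyme A to fatty acids, held large HUH7 values of both signs. ACSL5 (chromosome 10, 112374116 to 112428376, GRCh38.p14), a synthetase known from liver and intestine, had -3.56 in HUH7 in the authors' deposited table, an 11.8-fold difference. Only 34 of 9132 genes with unrepeated values were more negative. ACSL4 (chromosome X, 109641335 to 109733257), which prefers arachidonic acid and supplies the lipids that are oxidised in ferroptosis, had 2.80 in HUH7 (6.97-fold) in the authors' deposited table. Of the unrepeated genes, 355 were more positive. ACSL1, a main synthetase of liver and fat, had 0.24 in HUH7 in the authors' deposited table. The family thus held a strongly negative, a strongly positive and a near-median gene, with a median of 0.24.

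In PLC/PRF/5 the synthetases were among the members with most peaks. ACSL4 had 4 peaks, at 1.83, 4.91, 7.04 and 8.04 in the authors' deposited table. ACSL3, a synthetase of the endoplasmic reticulum and lipid droplets, had 4 peaks, at 2.39, 8.37, 10.30 and 12.32 in the authors' deposited table. Every peak of both genes was positive, as were most peaks of the column. The 4 ACSL3 peaks spanned 9.93 log2 units and the 4 ACSL4 peaks 6.21, beside a median span of 9.29 over the 204 genes with exactly 4 peaks. ACSL4 was positive in both lines, and ACSL5 had no peak in PLC/PRF/5.

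Desaturases and elongases had small HUH7 values with 1 exception. The 9 listed genes of both steps had a median of 0.13, with 6 positive and 3 negative, where 60.8% of all HUH7 genes were positive. FADS2, the desaturase at the entry of polyunsaturated fatty acid synthesis, had 0.77 in the authors' deposited table. FADS1, which acts later in the same route, had 0.13 in HUH7 and PLC/PRF/5 peaks at 1.48 and 9.47 in the authors' deposited table. FADS3 had 0.05 in HUH7 in the authors' deposited table. FADS1 and FADS2 overlap at chromosome 11, so reads of the overlap may be shared. SCD, which makes oleate and other monounsaturated fatty acids, was not listed in HUH7. It had 4 PLC/PRF/5 peaks, at 6.51, 7.61, 10.03 and 11.96 in the authors' deposited table, in a gene of 17594 bases. All 4 lay above the median of all peaks, 5.44.

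HACD2, one of the dehydratases that carry out the third step of each elongation round, was the exception among elongation genes. It had 1.91 in HUH7 (3.75-fold) and 1 PLC/PRF/5 peak at 12.89 in the authors' deposited table. The related dehydratase HACD3 had -0.52 in HUH7 and a peak at 1.15 in PLC/PRF/5, per the authors' deposited table. Those 2 dehydratases were thus the highest and the lowest elongation genes in PLC/PRF/5 and stood on opposite sides of 0 in HUH7. Among the condensing enzymes, ELOVL2, which extends polyunsaturated chains, had -0.40 in HUH7 and PLC/PRF/5 peaks at 8.98, 9.58 and 9.90 in the authors' deposited table. ELOVL6, which extends palmitate to stearate, had 0.48 in HUH7 and a peak at 7.32 in PLC/PRF/5, per the authors' deposited table. ELOVL1 (0.25) and ELOVL7 (-0.61), which extend saturated and monounsaturated very long chains, were listed in HUH7 only in the authors' deposited table. ELOVL4, which makes the longest chains of retina and skin, had 1 PLC/PRF/5 peak at 9.57 in the authors' deposited table. The 3 ELOVL2 peaks spanned 0.92 log2 units, the narrowest span among the 6 members with 2 or more peaks. The median span was 7.10 over those 6 members and 6.42 over all genes with 2 or more peaks. Those spans came from unequal numbers of peaks.

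The carnitine shuttle held values of opposite sign for the 2 listed isoforms of its entry enzyme in HUH7. CPT1A (chromosome 11, 68754620 to 68844277), the liver isoform, had -2.40 (5.26-fold) in the authors' deposited table, and 142 unrepeated genes were more negative. CPT1B, the muscle isoform, had 1.24 (2.35-fold) in the authors' deposited table. CPT2, which re-forms acyl-CoA inside the mitochondrion, had 0.94 in the authors' deposited table and was the member just short of 1. No shuttle gene was listed in PLC/PRF/5.

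HADH (chromosome 4, 107989889 to 108035171), the 3-hydroxyacyl-CoA dehydrogenase of short and medium chains, had the largest unrepeated value of all members. Its HUH7 value was 4.36 in the authors' deposited table, a 20.5-fold difference, and 61 of the 9132 unrepeated genes were more positive. The other 10 listed genes of mitochondrial beta oxidation ran from -0.81 to 1.02, and the median of the role was 0.15. In the role 6 genes were positive and 5 negative, where 60.8% of all HUH7 genes were positive. HADHB, the thiolase subunit of the mitochondrial trifunctional protein, had -0.81 in HUH7 in the authors' deposited table. HADHA, the subunit with the hydratase and the long-chain dehydrogenase, was not listed in HUH7 and had a PLC/PRF/5 peak at 1.60 in the authors' deposited table. The largest unrepeated HUH7 value of the members thus belonged to the dehydrogenase of shorter chains, and the partner subunits of the long-chain complex were each listed in a different line.

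Acyl-CoA dehydrogenases, which open each round of beta oxidation, were within or close to 1 in HUH7. ACAD11 had 1.02 in the authors' deposited table, the member just past 1, and ACAD10 had 0.83 in the authors' deposited table. ACADVL, for very long chains, had 0.56 in the authors' deposited table. ACAD9, also needed to assemble respiratory complex I, had 0.15, and ACADS, for short chains, had -0.09 in the authors' deposited table. ACADSB, for branched short chains, had -0.39 in HUH7 and a PLC/PRF/5 peak at 0.97 in the authors' deposited table. ACADM, for medium chains, was not listed in HUH7 and had PLC/PRF/5 peaks at 2.41 and 12.48 in the authors' deposited table. Those 2 ACADM peaks were 10.07 log2 units apart, the widest span of any member, beside a median of 6.42 over all genes with 2 or more peaks. ETFDH, which passes electrons from these dehydrogenases to ubiquinone, had -0.55 in HUH7 and a PLC/PRF/5 peak at 2.04 in the authors' deposited table.

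The remaining mitochondrial genes had small values in HUH7 or were not listed there. ECI1, which moves double bonds of unsaturated chains, had -0.47 in HUH7 in the authors' deposited table, and ACAA2, a thiolase, had 0.34. ECHS1, the short-chain hydratase, had a PLC/PRF/5 peak at 4.86 in the authors' deposited table. In peroxisomes, the 3 listed genes were all positive in HUH7, where 60.8% of all genes were, with a median of 0.86. ACAA1, the peroxisomal thiolase, had 1.71 (3.27-fold) in the authors' deposited table. EHHADH, the bifunctional enzyme, had 0.86, and ACOX3, an oxidase of branched chains, had 0.40 in the authors' deposited table. Over the carnitine shuttle and both compartments, 11 of 17 listed genes were positive in HUH7 (64.7%, beside 60.8% of all genes), with a median of 0.40.

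The regulators included the 1 member of the 41 listed with a repeated HUH7 value, beside 12.6% of all HUH7 genes (1315 of 10447). PPARGC1B, a coactivator of mitochondrial and lipid genes, had 10.24 in the authors' deposited table, and 64 genes held exactly that value. The fold changes of the 8 positive repeated values stood to each other as the whole numbers 3 to 10, within 3.1e-06, and that of PPARGC1B took the place of 5. The same 8 ratios held among the negative repeated values. The size of the PPARGC1B value is therefore not read as a graded measurement. MLYCD, which breaks down malonyl-CoA, and PRKAB1, a subunit of AMP-activated protein kinase, are genes of the same metabolism outside the members and held the same value of 10.24 in the authors' deposited table. Another 2 such genes held other repeated values, SCP2 at 11.24 and ACBD6 at -8.94 in the authors' deposited table.

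PPARD, a fatty acid-sensing nuclear receptor of broad expression, had -1.94 in HUH7 (3.83-fold) in the authors' deposited table. PPARA, the receptor that drives oxidation in liver, had 0.28 in HUH7 and a PLC/PRF/5 peak at 8.82 in the authors' deposited table. PPARG, the receptor of fat storage, had 0.02 in HUH7 in the authors' deposited table, the member nearest to 0. PPARGC1A, the coactivator induced by fasting in liver, had -0.80 in HUH7 in the authors' deposited table. Without PPARGC1B the 4 remaining regulators had a median of -0.39, beside 0.23 over all unrepeated genes.

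Genes of glycerolipid assembly and acyl-CoA binding were spread around 0 in HUH7, with a median of -0.03. AGPAT3, an acyltransferase that makes phosphatidic acid, had 1.87 in HUH7 (3.66-fold) and a PLC/PRF/5 peak at 4.24 in the authors' deposited table. The acyltransferases of the last step of triglyceride synthesis, DGAT1 and DGAT2, had -0.20 and 0.15 in HUH7 in the authors' deposited table. DBI, the acyl-CoA binding protein, had -0.51 in HUH7 and a PLC/PRF/5 peak at -2.05 in the authors' deposited table. DBI was the 1 member with a negative PLC/PRF/5 value, and that value lay at the low end of the column, whose lowest peak was -2.12.

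**Figure D2:**
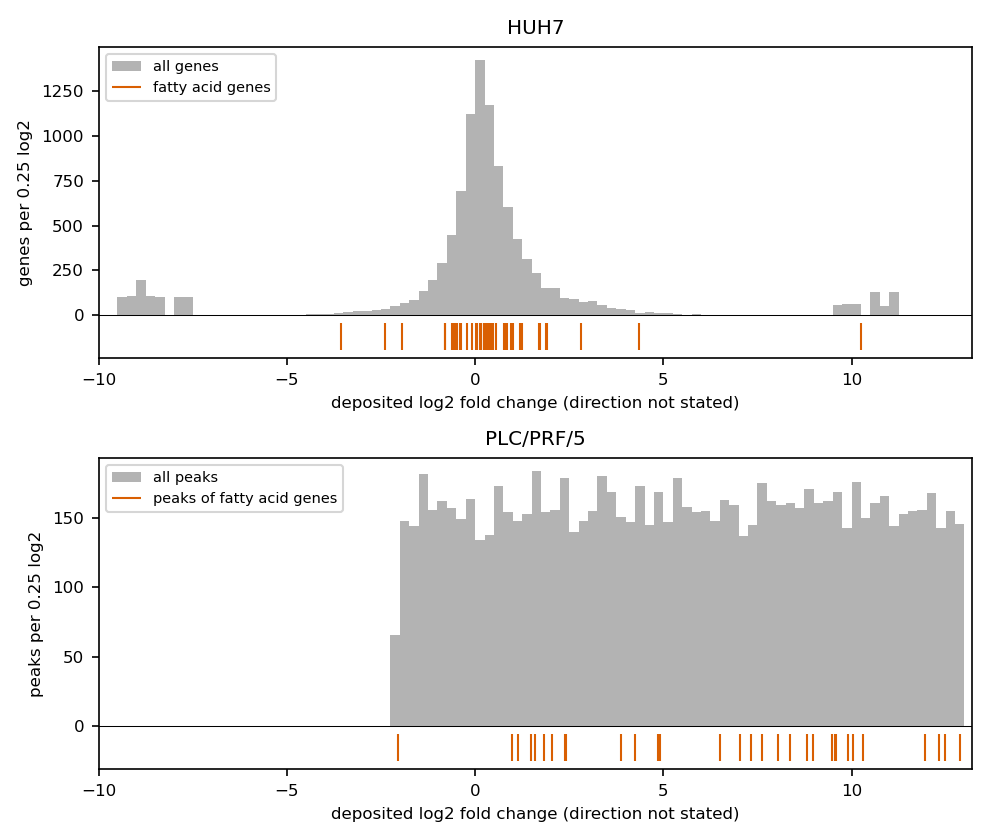
Number of genes (HUH7, top) or peaks (PLC/PRF/5, bottom) per 0.25 log2 units against the deposited log2 fold change, for the whole column (grey), with the members as ticks below the axis. HUH7 members follow the central hump and PPARGC1B falls in the separate block of positive repeated values, while PLC/PRF/5 member peaks are scattered over an even column from -2.12 to 13.

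In PLC/PRF/5 the 18 listed members had 31 peaks, 30 of them positive. By gene median, 17 of 18 members were positive (94.4%), beside 90.3% of all genes. A median of 1 or more was reached by 16 members (88.9%), beside 84.5% of genes, and a median of -1 or less by 1 member, DBI (5.56%), beside 4.47% of genes. The members' median was 5.72, with quartiles of 2.49 and 8.82, beside a median of 5.45 and quartiles of 2.40 and 8.50 over all 5475 gene names. Neither the share of positive members nor their centre thus sets them apart from a column that is nearly all positive. At least 2 peaks were present in 6 members (33.3%, beside 39.5% of genes). At least 4 were present in 3 members, ACSL3, ACSL4 and SCD (16.7%, beside 7.74% of genes).

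By role, desaturation and elongation had a PLC/PRF/5 median of 8.82 over 7 genes, and oxidation 2.04 over 5 genes. Activation had 7.66 over 2 genes, and glycerolipid and acyl-CoA binding genes 1.10 over 2 genes. The 5 oxidation genes ran from 0.97 to 7.45 and the 7 desaturation and elongation genes from 1.15 to 12.89, so the roles overlapped. In HUH7 the order of those roles was not the same, with oxidation at 0.40 over 17 genes above desaturation and elongation at 0.13 over 9. Those medians were taken over different genes in each line, so they do not compare the lines. The oxidation genes listed in both were ACADSB (-0.39 in HUH7) and ETFDH (-0.55). Those of desaturation and elongation were HACD2 (1.91), ELOVL6 (0.48), FADS1 (0.13), ELOVL2 (-0.40) and HACD3 (-0.52). Peaks of 1 gene spanned up to 10.07 log2 units, more than the gap between the medians of any of these roles.

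**Figure D3:**
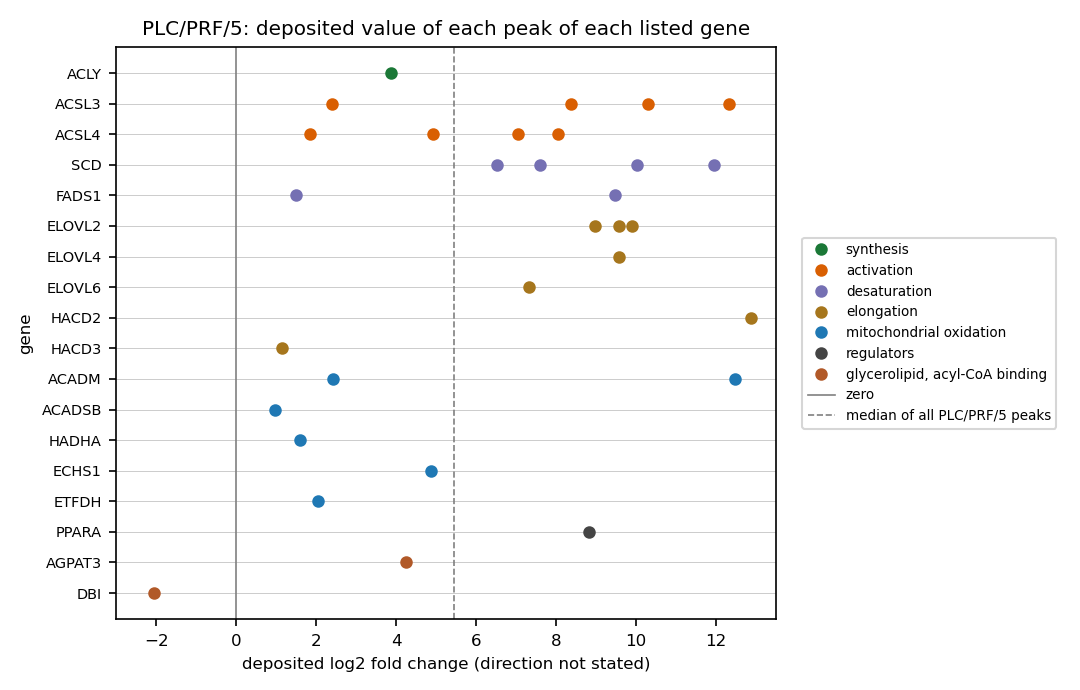
Deposited PLC/PRF/5 log2 fold change (x axis, direction not stated) of each peak of the 18 listed genes (y axis), coloured by role, with a dashed line at the median of all peaks, 5.44. All peaks except that of DBI are positive, the 4 SCD peaks and the 3 ELOVL2 peaks all lie right of the dashed line, and the 2 ACADM peaks lie far apart.

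Set side by side, 11 members had values in both lines. Of these, 6 were positive in both (ACSL4, FADS1, ELOVL6, HACD2, PPARA and AGPAT3), DBI was negative in both, and 4 were negative in HUH7 and positive in PLC/PRF/5 (ELOVL2, HACD3, ACADSB and ETFDH). The same sign was thus held by 7 of 11 members (63.6%), beside 56.8% of the 3929 genes listed in both lines. HACD2, ACSL4 and AGPAT3 were the members past 1 in both lines. A value of 1 or more was held by 22.2% of HUH7 genes and 84.5% of PLC/PRF/5 genes, so most HUH7 genes past 1 would pass again. With 90.3% of PLC/PRF/5 genes positive, a positive HUH7 gene nearly always matches in sign. Neither the count of same signs nor these 3 genes are thus support from a second line.

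**Figure D4:**
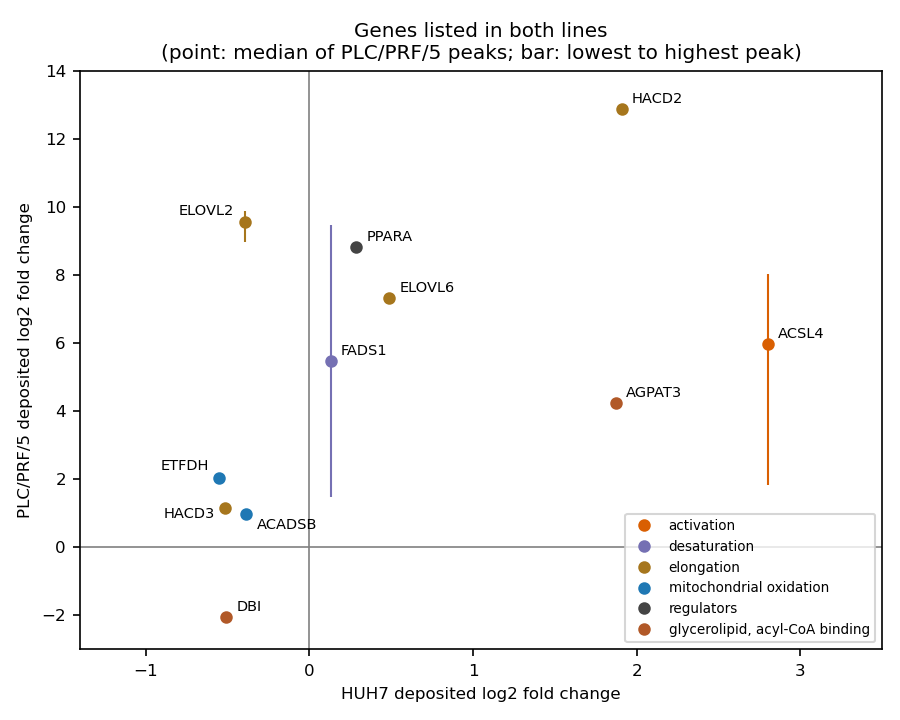
Deposited log2 fold change in HUH7 (x axis) and in PLC/PRF/5 (y axis) of the 11 genes listed in both lines, with points at the median of PLC/PRF/5 peaks and bars from the lowest to the highest peak. HACD2, ACSL4 and AGPAT3 lie to the right, DBI is the gene below 0 in both lines, and ELOVL2, HACD3, ACADSB and ETFDH lie left of 0 in HUH7 and above 0 in PLC/PRF/5.

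Of 90 other genes of fatty acid metabolism, 65 were listed in HUH7 and 25 in PLC/PRF/5, against 51% and 24.1% of protein-coding genes. In HUH7, 41 were positive and 24 negative, where 60.8% of all genes were positive. Their median was 0.11, beside 0.20 for all HUH7 genes. Among them 12 were at 1 or more (18.5%, beside 22.2% of all HUH7 genes) and 7 at -1 or less (10.8%, beside 14.6%). The largest unrepeated values were those of PRKAA2, a catalytic subunit of AMP-activated protein kinase (3.30), ABHD5, the coactivator of triglyceride lipase (2.45), and ACOT7, a thioesterase (1.74), in the authors' deposited table. The most negative were those of ABCD3, a peroxisomal fatty acid transporter (-3.19), SLC27A2, a fatty acid transport protein with synthetase activity (-3.12), and IVD, a dehydrogenase of leucine breakdown (-2.17), in the authors' deposited table. With repeated values included, the shares at 1 or more and at -1 or less lay below those of the whole column. Among the 61 unrepeated values, 9 were at 1 or more, beside 20.1% of unrepeated genes. At -1 or less there were 6 of the 61, beside 7.72% of unrepeated genes, so the negative share was not below the column there.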

How the data were processed

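MeRIP-seq libraries (m6A IP and input) of CSTF2-knockout and parental HUH7 and PLC/PRF/5 cells entered through 1 table of the authors' comparisons. Per the file headers, its values are log2 fold changes, 1 column per line. No source used here gives the direction of the ratio, aligner, peak caller, differential test, scaling or filters. FastQC 0.12.0 and build hg38 are named per the submitters' processing notes. Read counts were not analysed here, so depth is unknown. Listed members matched the RefSeq table (GRCh38.p14) by current symbol. Counts and medians were computed in Python 3.11.15 with functions tested on simulated data. Repeated HUH7 values were those above 1 in size that at least 10 genes held alike to 6 decimals. The size threshold was a log2 value of 1 (2-fold). No test was run, since each group held 1 library. The members, roles, other gene lists and rule for names were chosen with earlier results of these data known. By that rule any member could be named, in full when past 1, repeated, listed in both lines or with several peaks, and 3 other pathway genes per sign; MLYCD, PRKAB1, SCP2 and ACBD6 were named after their values were seen. Alternatives covered repeated values, centring, the value per gene, the size threshold and symbols as deposited.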

Additional observations from a re-analysis of the deposited data

Results flagged for a closer look

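Among the 11 members listed in both lines, 4 had opposite signs in the 2 deposited comparisons, and the difference between the lines was not tested. In the authors' deposited table, ELOVL2 had -0.40 in HUH7 and a median of 9.58 in PLC/PRF/5. HACD3 had -0.52 in HUH7 and 1.15 in PLC/PRF/5 there. ACADSB had -0.39 in HUH7 and 0.97 in PLC/PRF/5. ETFDH had -0.55 in HUH7 and 2.04 in PLC/PRF/5. All 4 HUH7 values are below 1 in size, 90.3% of PLC/PRF/5 genes are positive, and the table does not state whether both columns run the same way.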

How the results depend on the processing

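Counts and medians were recomputed under each alternative listed for them, and matching by symbols as deposited changed none of them. No paired analysis was possible because each group held 1 library. With no spread between replicates, any change in the second decimal of a median counted as a move. In HUH7, a size threshold left 10 positive and 3 negative members of 27 and 14, and a log2 size of 2 left 5 of the 13 members past 2-fold. The HUH7 median of 0.25 was 0.24 without repeated values, at either cutoff of shared genes, 0.054 with the column median subtracted, and 0.53 as a mean. That of the regulators was -0.39 without repeated values, at either cutoff. With the column median subtracted, the HUH7 medians were 1.01 for synthesis, 0.043 for activation, -0.067 for desaturation and elongation, 0.20 for oxidation, -0.18 for regulators and -0.23 for glycerolipid genes. That centring turned the sign of 5 members with sizes below 1 (FADS1, FADS3, ACAD9, PPARG and DGAT2). It left 9 members at 1 or more and 4 at -1 or less, with ACAD11 at 0.82 and HADHB at -1.01. With both column medians subtracted, 8 members had the same sign in both lines, instead of 7. In PLC/PRF/5, positive members numbered 30 by peak, 11 among genes with 1 peak and 10 after centring, when 8 were negative. Past 2-fold were 30 peaks, or 11 genes with 1 peak, of the 17 members. The PLC/PRF/5 median of 5.72 was 5.47 by mean of peaks, 7.68 by the peak of largest size, 7.32 by peak, 4.05 among genes with 1 peak and 0.28 after centring. Activation was 6.90, 10.2 and 7.54 by mean, largest peak and peak. Desaturation and elongation was 9.03, 9.57 and 9.47 likewise, and 8.44 among genes with 1 peak. Oxidation was 2.23 by peak and 1.82 among genes with 1 peak. Activation had no gene with 1 peak and no such value.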

Other observations

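FADS1, FADS2 and FADS3 lie side by side at chromosome 11. Their HUH7 values of 0.13, 0.77 and 0.05 in the authors' deposited table were all positive and below 1. Of all HUH7 genes, 60.8% were positive and 22.2% were at 1 or more. With the column median subtracted, FADS1 was at -0.067, FADS2 at 0.58 and FADS3 at -0.15, so the shared sign did not hold. HADHA and HADHB, which lie side by side at chromosome 2 and encode subunits of 1 enzyme complex, were each listed in a different line.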
